A study of Mus musculus with 18 samples.

Results

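Muscle mass is set by the balance between protein synthesis and protein breakdown, and 10 genes that act on the breakdown side or hold back synthesis were examined: Fbxo32, Trim63, Foxo1, Foxo3, Klf15, Ddit4l, Eif4ebp1, Mstn, Gadd45a and Arrdc2. They were taken as the probe sets whose only gene symbol in the platform annotation was one of these names. Each of the 10 genes was found, with 1 probe set each, among 35382 probe sets, of which 21153 carried a single symbol. The RNA came from skeletal muscle, heart muscle and hippocampus of C57BL/6 mice that were either wild type or transgenic for TN-XXL (labelled +/+), a genetically encoded calcium indicator built from fluorescent proteins and a calcium-binding part of troponin C. The 2 genotypes were littermates per the series text, and each genotype in each tissue had 3 arrays, 18 in all. The sources used here do not give the age, the sex, the promoter of the transgene, the muscle taken or any treatment. They also do not say that the arrays of a group came from separate animals, so the spread behind each p-value may be technical.

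In muscle, FoxO transcription factors switch on the ubiquitin ligase genes Fbxo32 and Trim63, whose products mark proteins for the proteasome. Insulin and IGF1 hold FoxO factors out of the nucleus through the kinase Akt and at the same time activate mTOR complex 1, which promotes translation in part by inactivating the translation repressor 4E-BP1, the product of Eif4ebp1. Myostatin, a secreted member of the TGF-beta family encoded by Mstn, restrains muscle growth through activin receptors and Smad proteins, and Ddit4l (REDD2) belongs to a small family of stress-induced mTOR complex 1 inhibitors.

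Values are log2 RMA values (a background-corrected, normalised summary of the probes of a set), so 1 unit is a doubling of signal. Genotype differences are transgenic minus wild type with the standard error (SE) of a limma model fitted to all 18 arrays and n = 3 arrays per group. A probe set was called when its Benjamini-Hochberg adjusted p over all 35382 probe sets was under 0.05, two-sided, and the words rose and fell are used of called genes only. The number of arrays limits the precision. Array medians were 2.44 to 2.49 in skeletal muscle, 2.61 to 2.63 in heart and 3.68 to 3.71 in hippocampus, and a value below the median of its own array is treated as too dim for its size to be read. Arrays of one group correlated at 0.982 to 0.993, and no pair of arrays held identical values. The markers of each labelled tissue lay above the array median in that tissue: 9 of 9 skeletal muscle markers, 8 of 8 measured heart muscle markers and 8 of 8 measured hippocampal neuron markers. In bulk tissue, fewer cells of a type and less RNA per cell cannot be told apart.

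**Figure D1:**
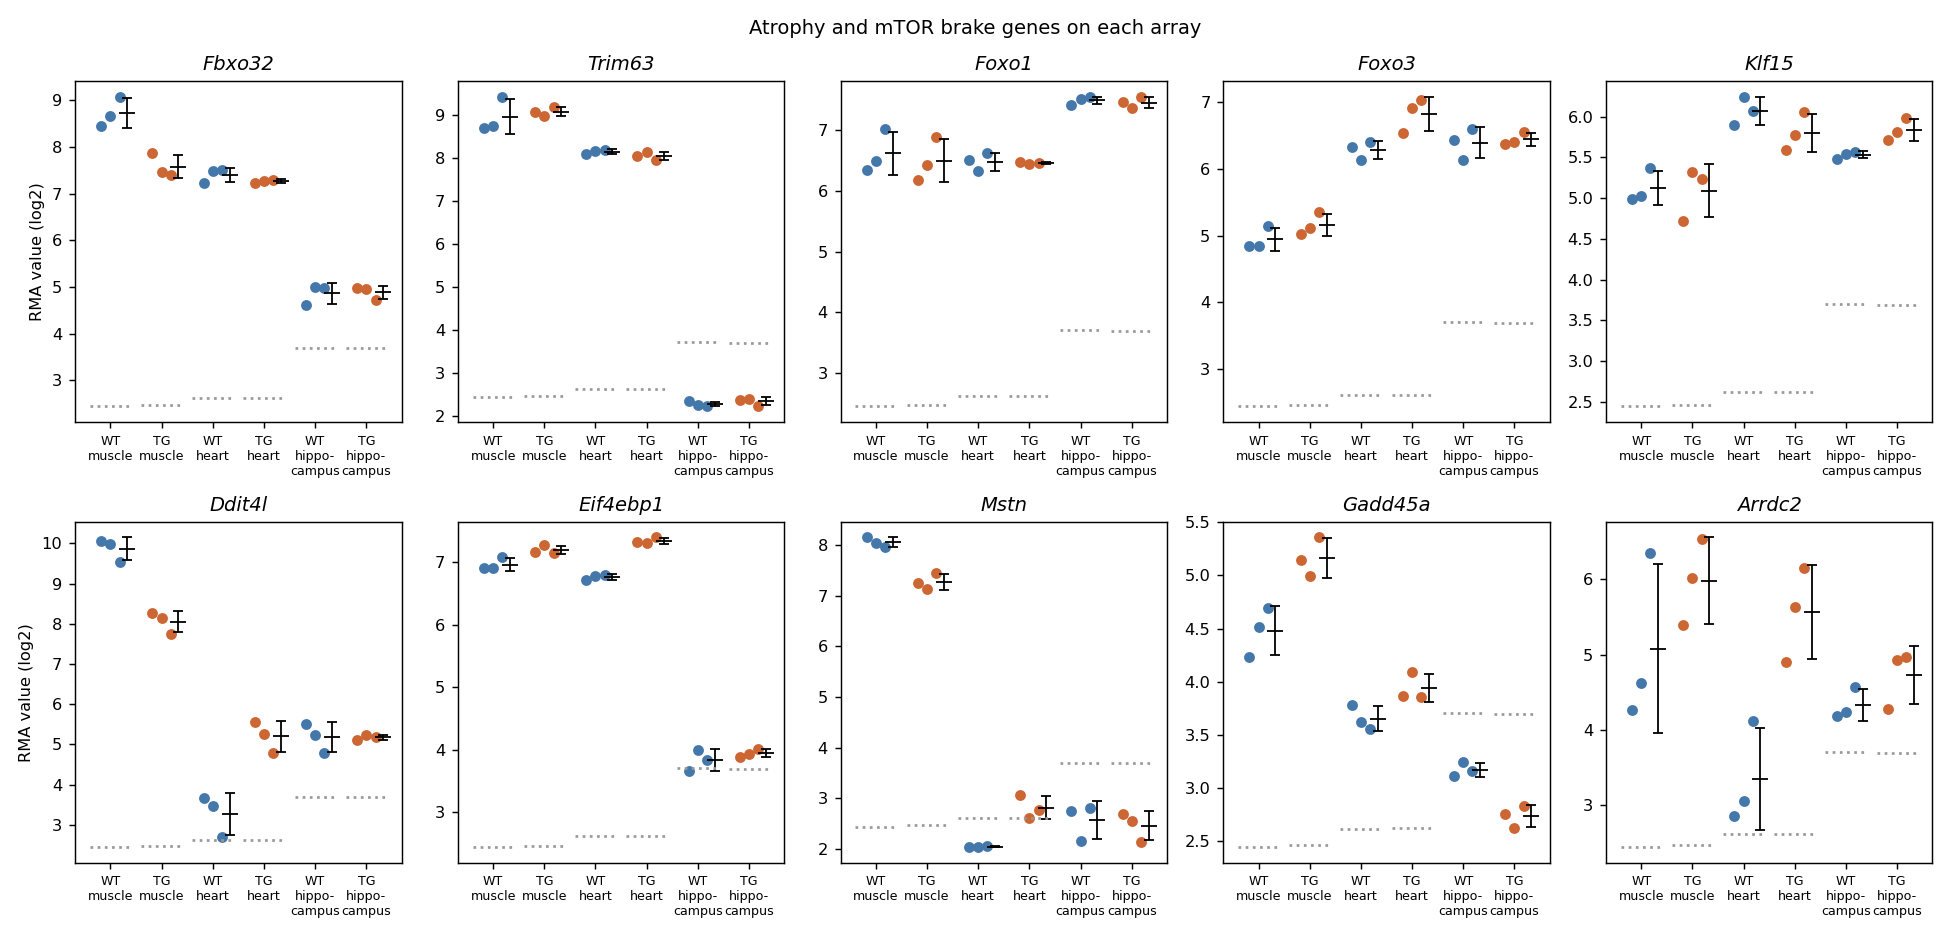
Log2 RMA value of each of the 10 genes on every array (points, arrays 1 to 3 from left to right within a group; blue wild type, orange transgenic), with the group mean and SD beside the points (bars) and the mean array median of the group (dotted line). Transgenic Ddit4l arrays lie below wild type arrays in skeletal muscle (7.76 to 8.28 against 9.54 to 10.07) and above them in heart (4.79 to 5.56 against 2.69 to 3.66).

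The 250 bases upstream of the transcription start were taken from RefSeq (GRCm38.p6) for 8 of the 10 genes. Fbxo32 and Eif4ebp1 are not among them. Sequences are printed for Ddit4l and Mstn, the pair called lower in muscle and higher in heart, for Trim63, the atrophy ligase gene that did not pass in any tissue, and for Klf15, whose window held a repeated clock E-box. Each is written 5′ to 3′ on the strand of its gene in lower case, ending at the base before the start, with the motif matches in capitals.
Ddit4l, chr3:137623422-137623671, plus strand: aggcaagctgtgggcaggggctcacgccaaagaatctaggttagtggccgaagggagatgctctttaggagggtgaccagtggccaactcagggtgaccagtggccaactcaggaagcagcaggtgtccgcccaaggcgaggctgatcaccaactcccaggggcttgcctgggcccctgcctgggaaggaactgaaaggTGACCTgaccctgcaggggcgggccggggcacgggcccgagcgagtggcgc
Mstn, chr1:53061390-53061639, plus strand: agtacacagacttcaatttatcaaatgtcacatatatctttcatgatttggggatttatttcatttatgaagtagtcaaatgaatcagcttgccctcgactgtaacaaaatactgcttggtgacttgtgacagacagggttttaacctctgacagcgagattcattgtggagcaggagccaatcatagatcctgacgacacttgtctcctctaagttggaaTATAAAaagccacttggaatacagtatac
Trim63, chr4:134314870-134315119, plus strand: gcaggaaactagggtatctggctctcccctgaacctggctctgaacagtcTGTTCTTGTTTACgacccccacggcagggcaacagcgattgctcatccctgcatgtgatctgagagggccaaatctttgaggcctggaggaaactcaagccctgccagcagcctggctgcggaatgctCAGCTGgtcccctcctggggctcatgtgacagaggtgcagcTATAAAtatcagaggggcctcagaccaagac
Klf15, chr6:90462326-90462575, plus strand: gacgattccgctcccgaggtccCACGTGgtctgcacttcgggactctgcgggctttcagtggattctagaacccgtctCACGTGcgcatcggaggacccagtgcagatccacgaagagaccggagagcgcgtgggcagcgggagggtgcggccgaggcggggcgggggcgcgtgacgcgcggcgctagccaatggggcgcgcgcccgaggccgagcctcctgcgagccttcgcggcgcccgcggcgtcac
The 7 motifs searched on both strands were a FoxO motif (GTAAACA), a glucocorticoid half-site (TGTTCT), the clock E-box (CACGTG), a myogenic E-box (CAGCTG), the D-box (TTATGTAA), a ROR and Rev-erb half-site (AGGTCA) and the TATA box (TATAAA). None of the matches in these 8 windows overlapped another. Trim63 held the FoxO motif on the reverse strand with its first printed base at position −194, directly after a glucocorticoid half-site at −200, as well as a myogenic E-box at −72 and a TATA box at −31. Mstn held a TATA box at −29, Ddit4l a reverse-strand AGGTCA at −51, and Klf15 the clock E-box at −228 and at −172. The windows of Foxo1, Foxo3, Gadd45a and Arrdc2 held none of these letters. Among all 32851 RefSeq promoter windows of the same length, 3.17% held the FoxO motif, 16.1% the glucocorticoid half-site, 6.02% the clock E-box, 13% the myogenic E-box, 0.819% the D-box, 14.0% the AGGTCA half-site and 12.4% the TATA box. A match describes the letters of the window and no more.

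The first question was whether the indicator transgene went with altered atrophy and mTOR brake genes in skeletal muscle. In transgenic muscle Ddit4l, Fbxo32 and Mstn fell and Gadd45a rose, while Trim63, Foxo1, Foxo3, Klf15, Eif4ebp1 and Arrdc2 did not pass. Over all probe sets, 3.86% were called higher and 4.3% lower, against 1 and 3 of the 10 genes. The median difference was 0.04 over the 10 genes and 0.02 over all probe sets. The transgenic and wild type arrays did not overlap for 5 of the 10 genes, and for 21.9% of all probe sets.

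Ddit4l, the mTOR complex 1 inhibitor, read 10.07, 9.99 and 9.54 on wild type muscle arrays 1 to 3 and 8.28, 8.13 and 7.76 on transgenic muscle arrays 1 to 3. Every transgenic array was more than 1 unit below every wild type array. It fell by 1.81 ± 0.26 (SE), a 3.51-fold lower signal (adjusted p = 3.36e-04 by limma, and 0.0110 with only the muscle arrays fitted).

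Fbxo32, which encodes the muscle ubiquitin ligase atrogin-1, read 8.45, 8.65 and 9.08 in wild type and 7.87, 7.47 and 7.40 in transgenic muscle. The groups lay apart, every transgenic array below every wild type array. The gene fell by 1.15 ± 0.16, a 2.21-fold lower signal (limma adjusted p = 3.04e-04, and 0.0438 with only the muscle arrays). Trim63, which encodes the other classic muscle ligase, MuRF1, read 8.69, 8.74 and 9.42 in wild type and 9.07, 8.97 and 9.17 in transgenic muscle. Here wild type array 3 was the highest of all 6 arrays and wild type arrays 1 and 2 the lowest, so the groups overlapped. The difference of 0.12 ± 0.15 (95% confidence interval −0.19 to 0.43) did not pass (adjusted p = 0.748). Without wild type muscle array 3 it was 0.36 and passed (limma adjusted p = 0.0272).

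Mstn, the myostatin gene, read 8.15, 8.05 and 7.96 in wild type and 7.25, 7.13 and 7.44 in transgenic muscle, again without overlap. It fell by 0.78 ± 0.17, a 1.72-fold lower signal (limma adjusted p = 0.00993, 0.0254 with only the muscle arrays). Gadd45a, a stress-response gene that is induced in muscle atrophy, went the other way, at 4.23, 4.52 and 4.70 in wild type and 5.14, 4.99 and 5.36 in transgenic muscle. It rose by 0.68 ± 0.12, a 1.61-fold higher signal (limma adjusted p = 0.00220), a call that a fit to the muscle arrays alone did not give (adjusted p = 0.0894). Fbxo32, Mstn and Ddit4l kept theirs in that fit and without any 1 of the 18 arrays.

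The transcription factor genes above the ligases did not pass in muscle. Foxo1 read 6.34, 6.50 and 7.02 in wild type and 6.18, 6.43 and 6.88 in transgenic muscle, a difference of −0.12 (95% confidence interval −0.49 to 0.24, adjusted p = 0.790 by limma). Foxo3 read 4.84, 4.84 and 5.14 against 5.02, 5.11 and 5.35, a difference of 0.22 (−0.10 to 0.53, adjusted p = 0.490). Klf15, a glucocorticoid-induced factor that promotes amino acid breakdown, read 4.99, 5.03 and 5.37 against 4.72, 5.32 and 5.23, a difference of −0.04 (−0.38 to 0.30, adjusted p = 0.944). In all 3 genes the groups overlapped, and the intervals show which sizes of change these arrays leave possible.

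Of the remaining genes, Eif4ebp1 read 6.90, 6.90 and 7.08 in wild type and 7.15, 7.27 and 7.15 in transgenic muscle. All transgenic arrays were above all wild type arrays, but the difference of 0.23 ± 0.09 did not pass (limma adjusted p = 0.139). Arrdc2, an alpha-arrestin gene known to respond to glucocorticoids in muscle, had the widest spread: 4.26, 4.62 and 6.35 in wild type and 5.39, 6.02 and 6.54 in transgenic muscle. Its difference of 0.91 ± 0.49 did not pass (adjusted p = 0.356), and without wild type muscle array 3, which lay above 2 of the 3 transgenic arrays, it was 1.54 with an adjusted p of 0.0414 by limma.

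**Figure D2:**
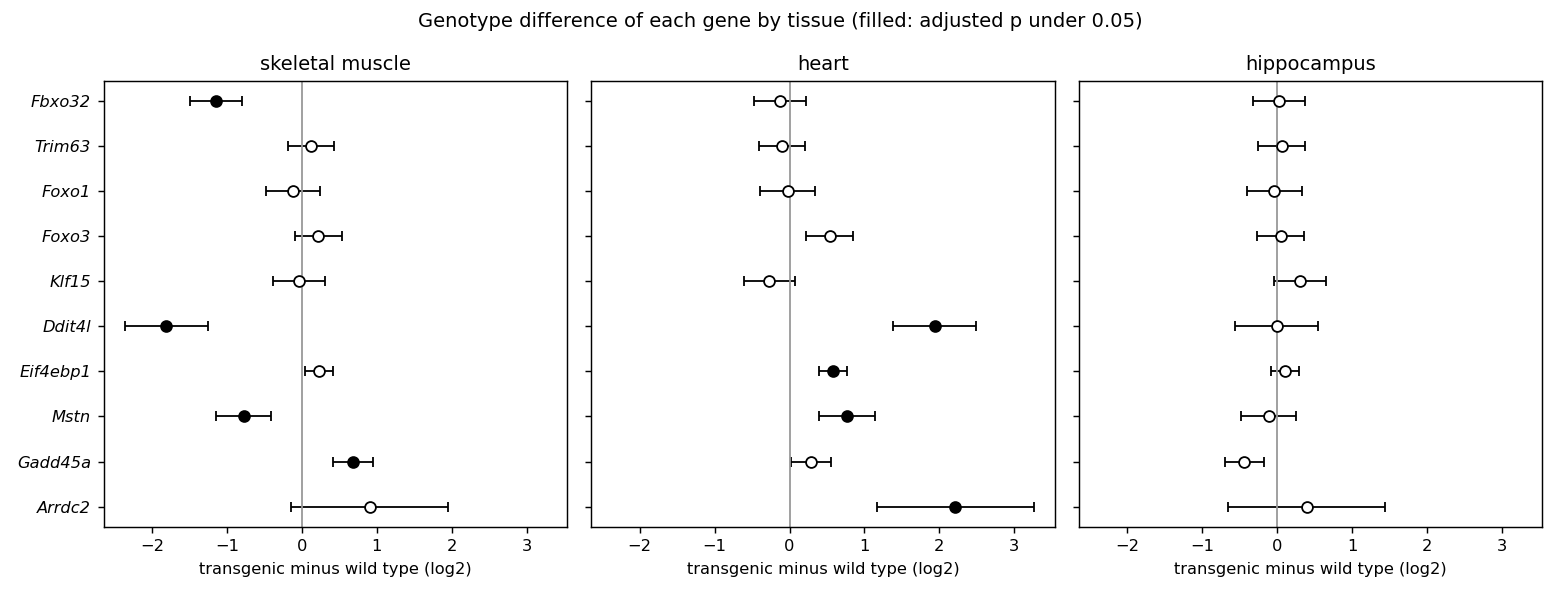
Difference between transgenic and wild type arrays (log2, points) with its 95% confidence interval (bars) from the limma model for each gene in each tissue, filled where the adjusted p was under 0.05. Ddit4l lies at −1.81 in skeletal muscle, 1.94 in heart and −0.01 in hippocampus, and no point is filled in hippocampus.

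Markers of other cells differed between the muscle groups, where 3.86% of all probe sets were called higher and 4.3% lower. Of 8 endothelial markers 4 fell (Tek, Egfl7, Emcn and Cldn5), and the log2 of their summed signal was 9.63 to 9.76 in wild type and 9.07 to 9.49 in transgenic muscle. Tek and Egfl7 kept the call without any 1 array, while Emcn and Cldn5 lost it without at least 4 of the 18 arrays. With only the muscle arrays Tek alone of the 4 passed (limma adjusted p = 0.0314), and Egfl7 had 0.166. Of 6 satellite cell and myoblast markers, Pax7 fell by 1.04 ± 0.10 (limma adjusted p = 1.12e-05), with a summed signal of 6.82 to 7.09 in wild type and 6.42 to 6.58 in transgenic muscle. Of 7 measured leukocyte markers Cd68 rose (summed signal 6.74 to 7.41 and 7.41 to 7.99), and of 7 measured adipocyte markers Adipoq rose and Lpl fell (9.84 to 9.96 and 9.70 to 9.75). The median difference of the 7 adipocyte markers was 0.56, opposite in direction to their summed signal. A sum follows its brightest markers, and Lpl alone had means of 9.15 in wild type and 8.40 in transgenic muscle. Adipoq lost its call without wild type muscle array 3 or transgenic muscle array 1 or 3 (adjusted p up to 0.102 by limma) and with only the muscle arrays (0.248). Cd68 also lost its call with only the muscle arrays (limma adjusted p = 0.0730). None of the 9 skeletal muscle markers was called, and their summed signal was 14.5 to 14.6 in wild type and 14.6 in every transgenic array. The part of these other cells in the 4 calls was not tested.

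In heart the same 10 genes gave another picture: Arrdc2, Ddit4l, Mstn and Eif4ebp1 rose and no gene fell. Over all probe sets 1.57% were called higher and 1.62% lower, against 4 and 0 of the 10 genes. An unadjusted limma p under 0.05 was reached by 6 of the 10 genes, none of them lower. The share of all probe sets was 15%, both directions together. The median difference was 0.41 over the 10 genes and 0.00 over all probe sets. The groups did not overlap for 6 of the 10 genes and for 18.5% of all probe sets. With just the 6 heart arrays fitted none of the 10 genes passed, while over all probe sets 36 did.

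Ddit4l read 3.66, 3.46 and 2.69 on wild type heart arrays and 5.56, 5.27 and 4.79 on transgenic heart arrays. The lowest transgenic array was more than 1 unit above the highest wild type array. It rose by 1.94 ± 0.26, a 3.83-fold higher signal (limma adjusted p = 7.23e-04, and 0.0813 with only the heart arrays). Wild type array 3, at 2.69, was just above the median of its array.

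Arrdc2 read 2.86, 3.06 and 4.12 in wild type and 4.90, 5.63 and 6.14 in transgenic heart, with no overlap. It rose by 2.21 ± 0.49, a 4.64-fold higher signal (limma adjusted p = 0.0235, 0.118 with only the heart arrays). The call also ended without wild type heart array 1 (adjusted p = 0.0964) or 2 (0.0813) and without transgenic heart array 2 (0.0707) or 3 (0.104), while the difference stayed between 1.92 and 2.60 without any 1 array.

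Eif4ebp1, the gene of the translation repressor 4E-BP1, had narrow groups in heart: 6.71, 6.77 and 6.79 in wild type and 7.32, 7.31 and 7.40 in transgenic arrays. It rose by 0.58 ± 0.09, a 1.5-fold higher signal (limma adjusted p = 0.00158, 0.0759 with only the heart arrays). Mstn read 2.05, 2.04 and 2.05 in wild type heart, below the median of each array, and 3.06, 2.61 and 2.78 in transgenic heart, above the median on 2 of the 3 arrays. It was called higher (0.77 ± 0.17, limma adjusted p = 0.0263), but the size of a difference from such dim signal is not read. That call ended with only the heart arrays (0.0994), with array weights (0.0567), without any one of the 3 wild type heart arrays (0.0672 to 0.0747), and without transgenic heart array 1 (0.0904) or 3 (0.0699).

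The other 6 genes did not pass in heart. Foxo3 came nearest, at 6.32, 6.14 and 6.40 in wild type and 6.53, 6.91 and 7.03 in transgenic heart, with no overlap and a difference of 0.54 ± 0.15 (limma adjusted p = 0.0647). It passed when dim probe sets (0.0428) or probe sets without a single symbol (0.0283) were left out of the adjustment, and without transgenic heart array 1 (0.0244). Gadd45a read 3.78, 3.62 and 3.55 in wild type and 3.86, 4.09 and 3.86 in transgenic heart, a difference of 0.29 ± 0.12 (adjusted p = 0.275).

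Fbxo32 read 7.22, 7.47 and 7.50 in wild type and 7.23, 7.27 and 7.30 in transgenic heart, a difference of −0.13 (95% confidence interval −0.47 to 0.22). Trim63 read 8.07, 8.15 and 8.19 against 8.03, 8.14 and 7.94, a difference of −0.10 (−0.41 to 0.21). Both ligase genes overlapped between the genotypes. Foxo1 read 6.50, 6.33 and 6.62 against 6.47, 6.45 and 6.46, a difference of −0.02 (−0.39 to 0.34), and Klf15 read 5.90, 6.25 and 6.08 against 5.59, 5.77 and 6.05, a difference of −0.27 (−0.61 to 0.07). The limma adjusted p of these 4 genes lay between 0.488 and 0.976.

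Beside these heart results, 2 of 8 atrial muscle markers rose, Nppa by 1.36 ± 0.15 and Kcnj3 by 0.84 ± 0.10, and the summed atrial signal was 10.04 to 10.72 in wild type and 11.1 to 11.9 in transgenic heart. With only the heart arrays neither passed (limma adjusted p = 0.0520 for Nppa and 0.0624 for Kcnj3). The marker counts stand beside 1.57% of all probe sets called higher and 1.62% lower. Of 8 endothelial markers Tek and Cldn5 fell (summed signal 10.7 to 10.8 and 10.2 to 10.5), calls that each ended without any one of 5 heart arrays. Of 8 measured heart muscle markers Nppa rose and Ryr2 fell by 0.38 ± 0.07 (limma adjusted p = 0.00971; 0.146 with just the heart arrays fitted), with a summed signal of 13.9 to 14.0 in wild type and 14.03 to 14.09 in transgenic heart. None of 7 measured adipocyte markers was called, and their summed signal was 11.08 to 11.12 in wild type and 10.84 to 10.89 in transgenic heart. Only 2 of the 7 lay above the array median in either group, and their median difference was 0.05. Ddit4l and Mstn are far brighter in skeletal muscle than in heart. The summed signal of the 9 skeletal muscle markers was 10.9 to 11.0 in wild type and 10.6 to 10.8 in transgenic heart. Only 2 of the 9 lay above the array median in either group, and the sum follows its brightest markers. The part of any of these cells, or of any skeletal muscle in the heart samples, in the 4 calls was not tested.

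In hippocampus none of the 10 genes was called. Limma called 0% of all probe sets there, and 1 probe set when arrays were weighted by quality. At an unadjusted p under 0.05 there was 1 of the 10 genes, Gadd45a, and 5.04% of all probe sets. Gadd45a read 3.11, 3.24 and 3.16 in wild type and 2.75, 2.62 and 2.83 in transgenic hippocampus, all below the array medians, a difference of −0.44 ± 0.12 (unadjusted p = 0.00311, limma adjusted p = 0.627). The groups did not overlap for Gadd45a and Klf15, and for 13.3% of all probe sets.

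Klf15 read 5.48, 5.55 and 5.56 in wild type and 5.72, 5.81 and 5.98 in transgenic hippocampus, a difference of 0.31 (95% confidence interval −0.04 to 0.65). Arrdc2 read 4.18, 4.23 and 4.57 against 4.28, 4.93 and 4.97, a difference of 0.40 (−0.65 to 1.45). Ddit4l, which moved by nearly 2 units in both striated tissues, read 5.51, 5.24 and 4.78 against 5.10, 5.22 and 5.19, a difference of −0.01 (−0.56 to 0.55). Fbxo32 read 4.61, 5.0 and 4.98 against 4.98, 4.96 and 4.73, and Eif4ebp1 read 3.66, 4.0 and 3.84 against 3.89, 3.94 and 4.01. Both pairs of groups overlapped. In wild type hippocampus Eif4ebp1 lay above the array median on 2 of the 3 arrays. Foxo1 read 7.42, 7.52 and 7.54 against 7.48, 7.36 and 7.54, and Foxo3 read 6.43, 6.14 and 6.60 against 6.37, 6.40 and 6.55. Trim63 (2.22 to 2.39) and Mstn (2.14 to 2.82) lay below the array median on all 6 hippocampal arrays.

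Whether the genotype difference depended on the tissue was tested directly as an interaction. The moderated F test called Ddit4l, Gadd45a, Mstn and Fbxo32, 4 of the 10 genes, against 3.89% of all probe sets. Between heart and muscle, 3 of the 10 genes and 2.55% of all probe sets differed in their genotype difference. For Ddit4l the difference was higher in heart than in muscle by 3.75 ± 0.37 (limma adjusted p = 9.08e-05), with a fall in one tissue and a rise in the other. For Mstn it was higher in heart by 1.55 ± 0.25 (adjusted p = 0.00301), with the heart value resting on dim wild type signal, and for Fbxo32 by 1.02 ± 0.23 (adjusted p = 0.0276).

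Between hippocampus and muscle, 3 of the 10 genes and 3.4% of all probe sets passed. The genotype difference of hippocampus minus that of muscle was 1.81 ± 0.37 for Ddit4l (limma adjusted p = 0.0121), 1.17 ± 0.23 for Fbxo32 (0.00960) and −1.12 ± 0.17 for Gadd45a (0.00196). The size for Gadd45a is not read, since its hippocampal signal lay below the array median on all 6 arrays. Between hippocampus and heart, 1 of the 10 genes and 0.582% of all probe sets passed, and the gene was Ddit4l (−1.94 ± 0.37, adjusted p = 0.0272). Arrdc2 rose in heart and did not pass in muscle, but its heart minus muscle contrast of 1.31 ± 0.69 did not pass either (adjusted p = 0.422). The same holds for Eif4ebp1 (0.35 ± 0.12, adjusted p = 0.174). Averaged over the 3 tissues, Arrdc2 (1.17 ± 0.28, limma adjusted p = 0.0226) and Eif4ebp1 (0.31 ± 0.05, 0.00158) rose and Fbxo32 fell by 0.41 ± 0.09 (0.0153), against 2.59% of all probe sets called higher and 3.21% lower. Without transgenic hippocampus array 3 the mean difference of Arrdc2 no longer passed (adjusted p = 0.0502).

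The other genes of these pathways were counted from lists, with all calls by limma over all probe sets. These counts stand beside 3.86% of all probe sets called higher and 4.3% lower in muscle, and 1.57% and 1.62% in heart. Among 29 measured atrophy ligase, autophagy and FoxO target genes, 1 rose and 3 fell in transgenic muscle and 25 did not pass, with a median difference of −0.03. Mul1, a mitochondrial ubiquitin ligase gene, rose by 0.81 ± 0.11 (adjusted p = 1.82e-04). Trim54, which encodes the MuRF1 relative MuRF3, fell by 0.66 ± 0.12 (0.00229), Pdk4, a FoxO-responsive kinase gene that slows glucose oxidation, fell by 0.83 ± 0.18 (0.00897), and the lysosomal protease gene Ctsl fell by 0.35 ± 0.10 (0.0463). With only the muscle arrays Mul1 alone of these passed, and Ctsl lost its call without any one of 14 of the 18 arrays. In heart 1 of the 29 rose, Mdm2, a ubiquitin ligase gene best known for restraining p53, by 0.47 ± 0.11 (0.0251), a call that ended without any one of the 6 heart arrays.

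Of 36 measured genes of the mTOR complexes, their regulators and translation targets, 4 rose and 4 fell in muscle and 28 did not pass (median 0.06). Tsc1, part of the complex that inhibits mTOR complex 1 through Rheb, fell by 0.88 ± 0.10 (adjusted p = 5.10e-05), and the kinase gene Mtor fell by 0.50 ± 0.08 (8.96e-04). Nprl3, a subunit of an amino acid-sensing inhibitor of mTOR complex 1, fell by 0.56 ± 0.10 (0.00260), while Pdcd4, a translation inhibitor degraded after S6 kinase signalling, rose by 0.71 ± 0.09 (8.58e-05). Ddit4, the paralogue of Ddit4l that encodes REDD1, differed by 1.69 in muscle without passing (0.0616); it was picked out after its value was seen. With only the muscle arrays 1 of the 36 rose and 1 fell. In heart 2 rose and 3 fell: Pdcd4 rose by 0.75 ± 0.09 (2.68e-04), Rragb, a Rag GTPase gene of amino acid sensing, by 0.46 (0.0362), Nprl3 fell by 0.59 ± 0.10 (0.00577), Fnip2, a partner of folliculin, fell by 0.76 ± 0.14 (0.00642), and Mtor fell by 0.38 ± 0.08 (0.0176). The heart call of Mtor ended without wild type heart array 1 or 2 or transgenic heart array 2 or 3 (adjusted p up to 0.0773), and 1 gene rose in place of 2 without wild type heart array 1, 2 or 3, transgenic heart array 2 or 3, wild type hippocampus array 3 or transgenic hippocampus array 2. The count rose to 3 when transgenic muscle array 1 or 2 or wild type hippocampus array 2 was left out. With only the heart arrays none of the 36 passed. In muscle the 4 genes called lower were Mtor, Akt1s1, Tsc1 and Nprl3, and the 4 called higher were Prkaa1, Rragb, Fnip2 and Pdcd4. Fnip2 was thus called higher in muscle and lower in heart.

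Insulin and IGF1 signalling to Akt had 4 genes higher and 7 lower of 22 measured in muscle (median −0.10), where 3.86% and 4.3% of all probe sets were called higher and lower. Igf2, an insulin-like growth factor gene, rose by 1.79 ± 0.17 (adjusted p = 9.34e-06) and the kinase gene Akt1 rose by 0.87 ± 0.07 (2.13e-06). Igf1, the growth factor gene of adult muscle, fell by 0.94 ± 0.09 (7.23e-06), and Igfbp5, which encodes an IGF-binding protein, fell by 1.11 ± 0.13 (5.17e-05). These 4 calls held with only the muscle arrays, where 2 genes rose and 2 fell in all. Without wild type muscle array 3, or without transgenic muscle array 2, 4 genes fell in place of 7. In heart 4 of the 22 fell (Irs1, Akt2, Grb10 and Insr, by 0.39 to 0.84) and none rose. With only the heart arrays none of the 4 passed (limma adjusted p from 0.0880 to 0.268). Each of these 4 lost its call without at least 1 heart array: Irs1 without transgenic array 3 (0.0588), Grb10 without wild type array 3 (0.0522), Akt2 without transgenic array 2 or 3 (up to 0.0562), and Insr without any one of 11 arrays, among them 5 of the 6 heart arrays (up to 0.133).

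The myostatin and activin pathway had 5 genes lower and none higher of 23 measured in transgenic muscle (median −0.12), where 3.86% and 4.3% of all probe sets were called higher and lower. Ltbp3, which encodes a binding protein that holds latent TGF-beta family ligands, fell by 1.40 ± 0.13 (adjusted p = 5.98e-06), and Smad3, an intracellular carrier of the signal, fell by 1.19 ± 0.10 (2.50e-06). The receptor genes Acvr2a and Tgfbr1 fell by 0.83 ± 0.10 (5.78e-05) and fell by 0.77 ± 0.08 (2.77e-05). Smurf2, a ubiquitin ligase gene of the pathway, was the other gene called lower. With only the muscle arrays 5 were again lower, and 5 or 6 without any 1 array. The higher count was 2 without wild type muscle array 1 and 1 without transgenic muscle array 1. It was also 2 without dim probe sets, with only probe sets of 1 symbol, and at an adjusted p under 0.1. In heart 1 of the 23 fell, Smurf1, by 0.40 ± 0.09 (0.0336), a call lost without any one of wild type heart arrays 1 and 2, transgenic heart arrays 1, 2 and 3 and transgenic hippocampus array 2 (up to 0.127). None rose, and 1 did without wild type muscle array 3, with only probe sets of 1 symbol, or at an adjusted p under 0.1.

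Amino acid catabolism, the programme linked to Klf15, had 4 of 13 genes lower in muscle and none higher (median −0.13), although Klf15 itself did not pass. Bcat2, the mitochondrial branched-chain aminotransferase gene, fell by 0.98 ± 0.12 (adjusted p = 9.01e-05) and the alanine aminotransferase gene Gpt2 fell by 0.95 ± 0.14 (4.42e-04). Aldh4a1, a proline breakdown enzyme gene, fell by 0.59 ± 0.14 (0.0123) and Bckdhb, a subunit of the branched-chain ketoacid dehydrogenase, fell by 0.38 ± 0.10 (0.0302). The last 2 calls ended with only the muscle arrays (0.0707 and 0.241) and without wild type muscle array 2, when 2 of the 13 fell. Aldh4a1 also lost its call without transgenic muscle array 2, and Bckdhb without array 1 of the wild type group or array 1 or 3 of the transgenic group. In heart Bcat2 and Bckdhb fell by 0.51 ± 0.12 (0.0326) and fell by 0.41 ± 0.10 (0.0417), and neither call held with only the heart arrays (0.250 and 0.183) or without wild type heart array 1 or 3 or transgenic heart array 2 or 3. Among 6 measured relatives of Gadd45a and Arrdc2, Arrdc4 fell by 0.59 ± 0.13 in muscle (0.00917, and 0.143 with only the muscle arrays), the other 5 did not pass, and none passed in heart. None of the genes of these 6 lists passed in hippocampus.

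**Figure D3:**
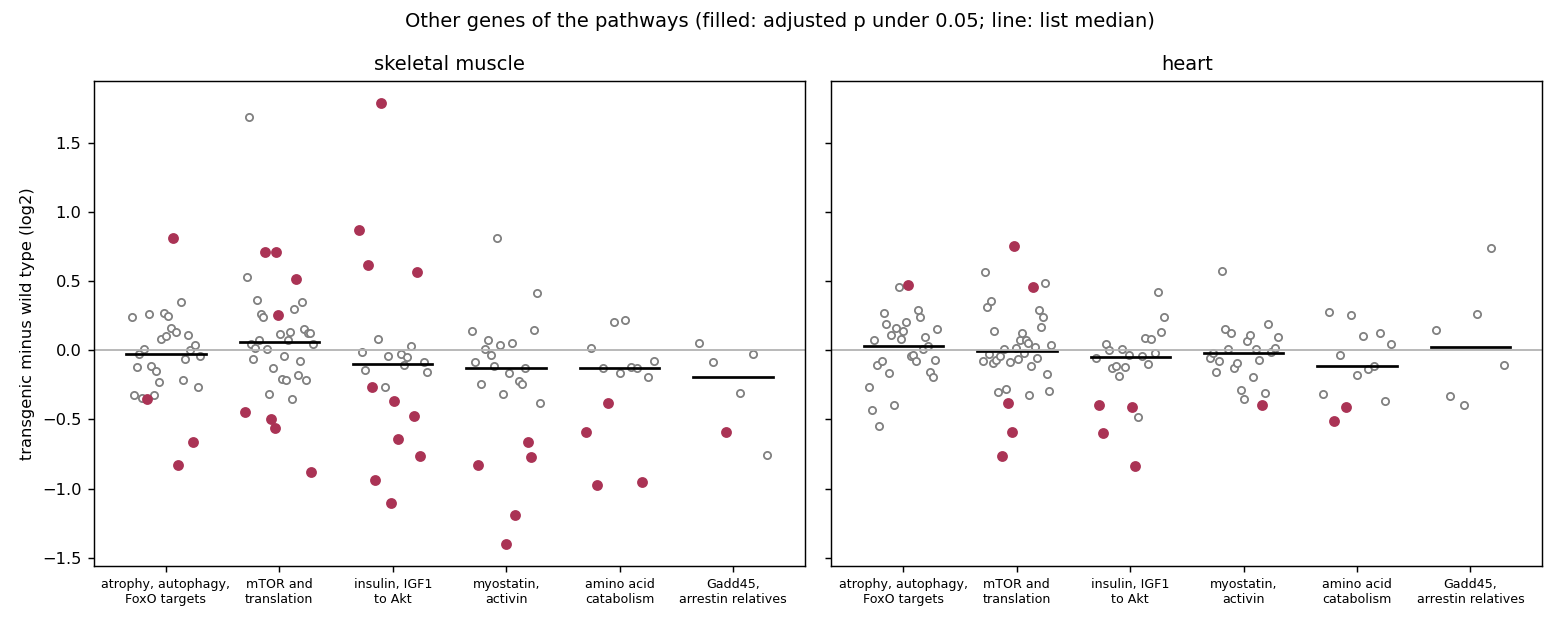
Difference between transgenic and wild type arrays (log2) for each measured gene of the 6 pathway lists in skeletal muscle and heart, filled where the adjusted p was under 0.05, with the median of each list as a line. In skeletal muscle all 5 filled points of the myostatin and activin list lie below 0, and the filled points of the mTOR list lie 4 above and 4 below.

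Genes of 3 programmes that act on muscle were counted beside them. Of 18 glucocorticoid-responsive genes, 4 rose (Per1, Mt1, Mt2 and Nfkbia) and 1 fell (Pdk4) in transgenic muscle, and 2 rose in heart (Per1 and Mt2). Without wild type muscle array 3, 7 rose in muscle, and without any 1 array 1 to 4 rose in heart. With only the arrays of a tissue, 3 rose in muscle and 1 in heart. Of 16 measured circadian clock genes 7 rose and 5 fell in muscle, where 3.86% and 4.3% of all probe sets did, and 10 rose and 4 fell in heart (1.57% and 1.62%). Fitted on the 6 muscle arrays alone, 7 rose and 2 fell, and on the 6 heart arrays alone 7 rose and 3 fell. Of 10 measured denervation genes Runx1 rose and Musk fell in muscle, and Hdac4 and Ncam1 rose in heart. Neither heart call held with only the heart arrays (limma adjusted p = 0.133 and 0.0813). None of the genes of these 3 programmes passed in hippocampus. Their part in the differences of Arrdc2, Klf15, Fbxo32 or Ddit4l was not tested.

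Levels in wild type mice place the genotype differences on their tissue background. These comparisons share the wild type arrays with the genotype comparisons above. Between tissues the whole arrays were shifted as well: the median probe set was 0.07 higher in heart than in muscle, 0.67 higher in hippocampus than in muscle and 0.61 higher in hippocampus than in heart. Ddit4l stood at 9.87 ± 0.29 (SD, n = 3) in muscle, 5.18 ± 0.37 in hippocampus and 3.27 ± 0.52 in heart, and the 3 tissues differed from each other. The heart level was 96.8-fold below muscle (difference −6.60 ± 0.26, limma adjusted p = 1.49e-11). Wild type heart array 3, at 2.69, lay just above its array median of 2.63, so this size is less sure. Mstn stood at 8.05 ± 0.10 in muscle and below the array median in both other tissues, so only a bright signal in muscle is read.

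Fbxo32 followed the order muscle (8.72 ± 0.32), heart (7.40 ± 0.15) and hippocampus (4.86 ± 0.22), with each step past the threshold. Trim63 stood at 8.95 ± 0.41 in muscle and 8.14 ± 0.06 in heart, a step of 0.81 ± 0.15 (limma adjusted p = 3.22e-04), and was below the array median in hippocampus. Eif4ebp1 stood at 6.96 ± 0.10 in muscle and 6.76 ± 0.05 in heart, a step that did not pass (adjusted p = 0.0818) unless arrays were centred (0.00279) or quantile normalised (0.0104), and at 3.83 ± 0.17 in hippocampus. Gadd45a stood at 4.48 ± 0.23 in muscle and 3.65 ± 0.12 in heart, and below the array median in hippocampus.

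Foxo3 was lowest in muscle (4.94 ± 0.18), while heart (6.28 ± 0.13) and hippocampus (6.39 ± 0.23) did not differ beyond their spread as deposited (0.10 ± 0.15, adjusted p = 0.524). Centred on the array medians, the difference of hippocampus minus heart was −0.98 (limma adjusted p = 3.07e-05), and that of hippocampus minus muscle fell short of the threshold (0.19, adjusted p = 0.267). Foxo1 stood at 6.62 ± 0.36 in muscle, 6.48 ± 0.15 in heart and 7.50 ± 0.06 in hippocampus, and the hippocampal excess over muscle of 0.88 turned to −0.38 after centring (0.0532). Klf15 stood at 6.07 ± 0.17 in heart, 5.53 ± 0.04 in hippocampus and 5.13 ± 0.21 in muscle, and its hippocampus minus muscle difference of 0.40 turned to −0.86 after centring (1.89e-04). Arrdc2 stood at 5.08 ± 1.12 in muscle, 4.33 ± 0.21 in hippocampus and 3.35 ± 0.68 in heart, where the step from muscle to heart passed (−1.73 ± 0.49, adjusted p = 0.0107) and ended without wild type muscle array 3 (−1.09, 0.0579). Its hippocampus minus muscle difference of −0.75 did not pass as deposited (adjusted p = 0.172) and was −2.01 after centring (0.00165) and −2.20 after quantile normalisation (7.82e-04).

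In counts, 2 of the 10 genes were higher and 6 lower in wild type heart than in muscle, against 25.6% and 13.1% of all probe sets. In hippocampus against muscle 3 were higher and 6 lower, against 70.1% and 8.1%, and against heart 3 were higher and 5 lower, against 67.3% and 9.46%. One of the 3 higher than in heart was Mstn, which lay below the array median in both tissues. The split depended on the scaling, for the 10 genes and over all probe sets. After centring 0 of the 10 were higher and 8 lower against muscle, and 1 was higher and 7 lower against heart. The share of calls that were higher was 66.1% in heart against muscle as deposited, 50.7% after quantile normalisation and 44.0% after centring. For hippocampus it was 89.6%, 43.3% and 26.4% against muscle and 87.7%, 44.2% and 26.0% against heart.

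Arrays that carried the same number in their labels moved together in several of these genes. Arrdc2 was highest on array 3 and lowest on array 1 in 6 of 6 groups. Foxo3 was highest on array 3 in 6 of 6 groups, Klf15 lowest on array 1 in 6 of 6, and Foxo1 highest on array 3 in 5 of 6. Ddit4l ran the other way, highest on array 1 and lowest on array 3 in 5 of 6 groups, transgenic hippocampus being the exception. Over all probe sets, arrays of the same number in different genotypes of a tissue correlated, as deviations from their group means, at −0.03 to 0.04, and in different tissues of a genotype at −0.05 to 0.05.

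**Figure D4:**
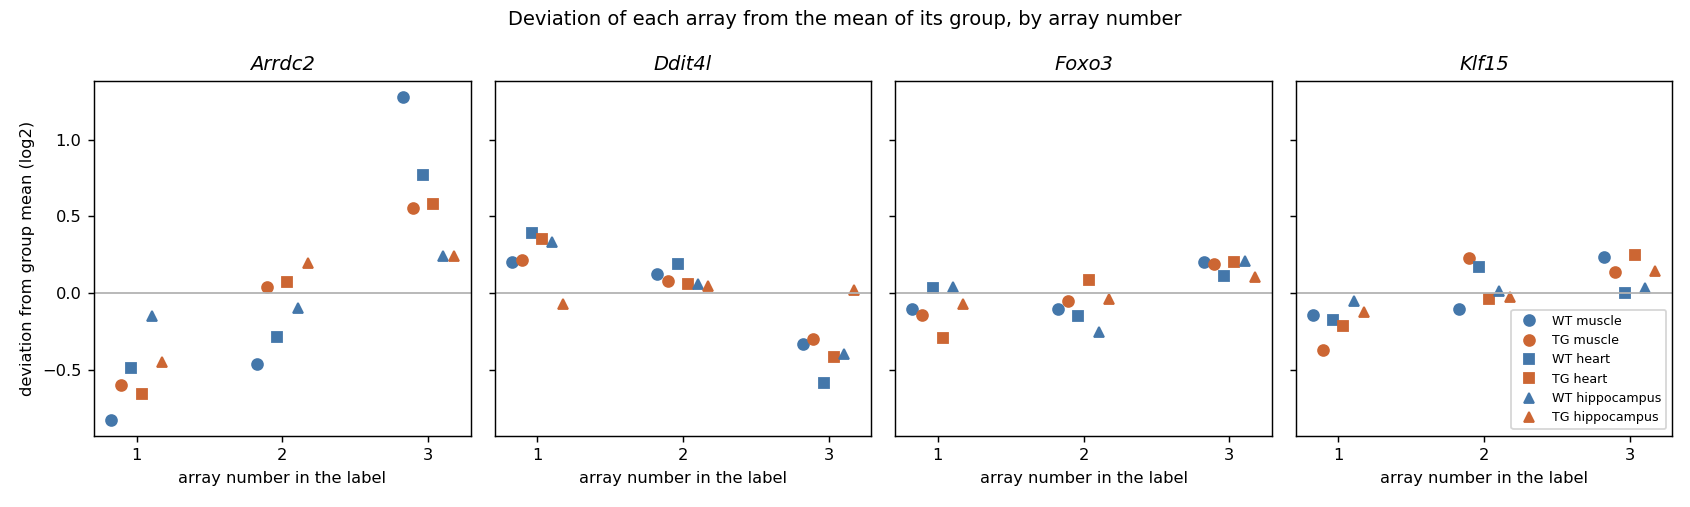
Deviation of each array from the mean of its group (log2) against the array number in the label, for Arrdc2, Ddit4l, Foxo3 and Klf15 (circles skeletal muscle, squares heart, triangles hippocampus; blue wild type, orange transgenic). Arrdc2 is lowest on array 1 and highest on array 3 in 6 of 6 groups, and Ddit4l is highest on array 1 in 5 of 6.

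Genes with the most similar patterns were found by the root mean square difference over the 18 arrays after centring each probe set on its own mean, which mostly reflects the tissues. For Ddit4l, whose values had an SD of 2.26 over the arrays, the nearest genes were Ppp1r27 (0.638), Musk (0.728) and Lrrc38 (0.748). All 3 had lower means in transgenic muscle (by differences of −1.81, −1.21 and −1.24), but none came near the heart difference of Ddit4l (0.10, −0.10 and −0.27). For Fbxo32 they were Pon3 (0.280), Clec2d (0.281) and Uaca (0.291), with muscle differences of −0.84, −0.76 and −0.52. For Mstn they were Ano5 (0.333), Mettl21c (0.371) and Slc16a3 (0.452). Their differences were −0.24, −0.69 and −0.06 in muscle and 1.11, 0.04 and 0.18 in heart. For Arrdc2 they were E230001N04Rik (0.60), Fbxo36 (0.679) and Usp2 (0.696), with differences of 1.90, 1.63 and 1.09 in muscle and 0.90, 1.65 and 1.02 in heart. Those of Eif4ebp1 were Coq8a (0.228), Cav3 (0.232) and Fxyd1 (0.259), with heart differences of 0.18, 0.007 and 0.12. Those of Gadd45a were Nme6 (0.216), Bnc2 (0.248) and Bckdk (0.252), with muscle differences of 0.22, 0.86 and 0.21.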

How the data were processed

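RNA from 18 samples, 3 per genotype and tissue, had been labelled and hybridised to Affymetrix whole-transcript arrays, per the labels' protocols. The deposited log2 values, 1 per probe set and array, come from RMA, run by the authors in R 2.10.0 according to the labels and the submitters' processing notes. The sources used here give no chip definition, no filter, no statement on joint normalization and no genome build, so a gene's probes are not placed on the genome. The array medians differed by tissue, so a shift of whole arrays enters the tissue comparisons and hardly the genotype ones.

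Group means of the 6 groups were fitted with limma 3.58.1 (R 4.3.3) to all 35382 probe sets and 18 arrays (12 residual degrees of freedom and 2.67 from the prior), with Benjamini-Hochberg adjustment over all probe sets. All groups share 1 spread per probe set, so an SE in heart also carries the spread in muscle and hippocampus. All tests were two-sided. Groups came from the sample labels. The 10 genes, the 9 pathway and context lists and the 11 marker lists (271 genes, 245 measured) were chosen with earlier results of these data known, so their counts are descriptions. The lists' genes were taken from probe sets with 1 symbol, the brightest where there were several. Up to 4 called genes of a list were named by the smallest p. Other named calls were picked after their values were seen, and some calls are not named.

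Arrays with the same number were checked for pairing by the correlation of their deviations from the group means. No pair exceeded 0.1, and the numbers were not treated as pairs. Alternatives were fits with only the arrays of a tissue, replicate blocks, filters, centring, quantile normalization, a robust prior with an intensity trend, array weights, thresholds of 0.01 and 0.1, and fits that left out 1 array. Simulated data with known changes were used to test the calls. Figures were drawn with matplotlib 3.10.9.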

Additional observations from a re-analysis of the deposited data

Results flagged for a closer look

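The genotype difference varied over the tissues by the interaction test for 4 of the 10 genes. For Ddit4l the adjusted p of the moderated F test was 1.36e-04, with differences of −1.81 in skeletal muscle, 1.94 in heart and −0.01 in hippocampus. All 3 transgenic arrays lay below the wild type arrays in muscle and above them in heart. For Gadd45a the adjusted p was 0.00467, with 0.68 in muscle, 0.29 in heart and −0.44 in hippocampus, where its signal lay below the array medians. For Mstn it was 0.00549, with −0.78 in muscle and 0.77 in heart, where the wild type signal lay below the array medians. For Fbxo32 it was 0.0132, with −1.15 in muscle, −0.13 in heart and 0.03 in hippocampus.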

How the results depend on the processing

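The 3 genes called lower in muscle (Ddit4l, Fbxo32 and Mstn) and the count of 0 lower in heart were the same under each alternative and without any 1 array. With only the arrays of a tissue, the count of genes called higher was 0 in muscle and 0 in heart. That fit has fewer arrays and so fewer degrees of freedom, and over all probe sets it called 838 in muscle and 36 in heart. Its SE also differed: 0.16 against 0.12 for Gadd45a in muscle and 0.30 against 0.26 for Ddit4l in heart. For Eif4ebp1, Mstn and Arrdc2 in heart its SE was smaller than with all arrays. What ended the calls was not tested. At an adjusted p under 0.01, 2 genes were higher in heart, 1 was higher and 0 lower in the mean over tissues. Without any 1 array, 1 to 3 genes were higher in muscle (3 without wild type array 3), 2 to 4 in heart (2 without array 1 or 2 of the wild type or array 3 of the transgenic group) and 1 to 3 in the mean over tissues (1 without transgenic hippocampus array 3). With a replicate block (the number within each tissue), 0 genes were lower in the mean over tissues, where Fbxo32 had an adjusted p of 0.0870. Mstn lost its heart call with that block (limma adjusted p = 0.0940). The block within each tissue called 2107 probe sets in muscle and 525 in heart, against 2884 and 1128 without it. For the interaction the block was the number within each genotype, and there Arrdc2 passed the moderated F test (adjusted p = 0.0433). Each of the 18 arrays was compared with the 3 arrays of the other genotype in its tissue. Of the 18, 9 correlated best with their own number, where a random match would do so 1 time in 3. Both genotypes were counted from the same correlations, so the 18 are not independent. The count therefore cannot show an excess. Correlations with the own number were −0.03 to 0.04. A replicate block with 1 effect of each number over all arrays, chosen after seeing the data, gave Foxo3 in heart an adjusted p of 0.0179, its mean over tissues 0.0211 and the interaction of Arrdc2 0.0385. Eif4ebp1 passed the interaction test without dim probe sets (0.0463) or wild type hippocampus array 1 (0.0345). Its adjusted p was 0.0814 as first fitted, up to 0.118 under other alternatives and up to 0.177 without 1 array.

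Under both centring and quantile normalization, the count of genes higher in wild type hippocampus was 0 against muscle and 1 against heart. The count of lower genes was 8 against muscle under both, and 7 (centring) or 6 (quantile normalization) against heart. Centring and then quantile normalization turned the hippocampus minus muscle difference of Foxo1 to −0.38 and −0.18 and that of Klf15 to −0.86 and −1.07. They turned the hippocampus minus heart difference of Foxo3 to −0.98 and −0.97, of Mstn to −0.56 and −0.13 and of Arrdc2 to −0.11 and −0.23, and centring turned that of Foxo1 to −0.075. Other differences that changed sign were uncalled and near 0. In the mean over tissues, quantile normalization gave 0.027 for Mstn and 0.019 for Klf15, and array weights 0.016 for Klf15. In hippocampus Ddit4l was 0.0031 with centring and 0.0018 with array weights. Without any 1 array, the muscle difference ran from −0.010 to 0.36 for Trim63, −0.31 to 0.080 for Foxo1 and −0.15 to 0.15 for Klf15, and the heart difference of Foxo1 from −0.10 to 0.044. In hippocampus the ranges were −0.099 to 0.11 for Fbxo32, −0.077 to 0.014 for Foxo1, −0.074 to 0.16 for Foxo3, −0.32 to 0.046 for Mstn and −0.20 to 0.16 for Ddit4l. In the mean over tissues they were −0.015 to 0.11 for Trim63, −0.12 to 0.0066 for Foxo1, −0.11 to 0.011 for Mstn, −0.058 to 0.11 for Ddit4l and −0.042 to 0.061 for Klf15. The wild type heart minus muscle difference of Foxo1 ran from −0.28 to 0.064 and the hippocampus minus heart difference of Foxo3 from −0.00067 to 0.23. The cause of these changes was not tested. Taking the mean of all probe sets gave nothing new for the 10 genes, which have 1 each. Of 2380 single differences under alternatives, 52 changed sign. Of those that did not change sign, 37 lost and 29 gained a call. Some sign changes between wild type tissues, such as those of Foxo1 and Foxo3, also lost or gained a call. They are counted only as sign changes. Signal near or below the array median limits Mstn in heart and Trim63, Mstn, Gadd45a and Eif4ebp1 in hippocampus. It also limits the sizes for Ddit4l and Arrdc2 in heart. Their lowest wild type heart arrays read 2.69 and 2.86, where the array medians were 2.61 to 2.63.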
